A study of Bos taurus with 94 samples.

Results

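ENSBTAG00000006419 and ENSBTAG00000006541 are 2 of the 24616 Ensembl genes measured by RNA sequencing in 94 libraries of Hereford cattle tissues. They were chosen on the measured values: among genes for which every skeletal muscle library lay above the median of the other libraries, they had the largest differences between the 11 skeletal muscle libraries and the other 83. The libraries are grouped by tissue label only. All are from snap-frozen tissue and carry the age label adult, also the 1 whose tissue label is fetal testis. Nearly every tissue has 1 library, and the labels name no animal, so a p-value here measures the spread among tissues. Between limbs that is the spread among limb muscles. For heart and organs it is mostly the spread among 77 libraries of other tissues. Some of these are related, such as 8 brain regions and 6 intestine libraries, but the tests count each library as independent. The skeletal muscle class holds 5 hindlimb muscles (semitendinosus, labelled Semitendinosus_eye, biceps femoris, semimembranosus, rectus femoris and gluteus medius), 3 forelimb muscles (infraspinatus, triceps brachii and supraspinatus), longissimus dorsi of the back, the internal tongue muscle and the diaphragm. Beside them stand 2 heart libraries (ventricle and atrium), 4 libraries of organs that hold striated muscle without naming it in the label (larynx cartilage, superficial tongue, lower tongue and esophagus), and 77 libraries of other tissues.

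Skeletal muscle contracts through sarcomeres, repeating units of actin and myosin filaments with their regulatory proteins. Many of these proteins exist as paralogs, and fast fibres, slow fibres and the heart use different sets of them. Slow skeletal fibres and the ventricle are known to share several of these paralogs, while many fast-fibre ones are not used in the adult heart. Muscles of 1 animal differ in their mix of fast and slow fibres, so the level of a fibre-type gene differs from muscle to muscle. The files do not pair the 2 identifiers with gene names, and 0 of the 24616 identifiers could be matched in the gene table used here, so no protein or role is assigned to either gene and no sequence is shown.

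Values are FPKM, which corrects fragment numbers for transcript length and library size, so levels can be compared between the genes. The FPKM totals of the libraries ran from 585122 to 1062591, and read depth is not known. Several libraries stood apart from their labels over the whole profile without the 2 genes. In the library labelled diaphragm the closest profile was that of the gall bladder (Spearman's rho 0.994 across genes), with a median rho of 0.772 to the other 10 muscles, whose own medians ran from 0.886 to 0.961. The library labelled corpus luteum was closest to longissimus dorsi (0.956), and the library labelled Chorid_plexus (choroid plexus) to triceps brachii (0.840). Bone marrow was closest to the vesicular gland, with a median rho of 0.828 to the 10 muscles. These libraries keep their label. The choice of the genes and their rank correlation in muscle are given with and without the library labelled diaphragm. Their differences in heart and organs are given with and without corpus luteum, choroid plexus and bone marrow.

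ENSBTAG00000006419 was abundant in 10 of the 11 muscle libraries. In the hindlimb it had 14189.5 FPKM in gluteus medius, 8489 in rectus femoris, 3804 in semimembranosus, 2961 in biceps femoris and 1515 in semitendinosus. In the forelimb it had 10170.5 FPKM in supraspinatus, 6050 in triceps brachii and 4007 in infraspinatus, and it had 3725 FPKM in longissimus dorsi and 9467 in the internal tongue muscle. The library labelled diaphragm, at 5.32 FPKM, was the exception and lay near the median of the libraries outside the class. The 10 other muscles overlapped with 3 libraries outside the class, corpus luteum, larynx and choroid plexus, and bone marrow came next below the lowest of the 10. Over the 10 muscles the gene averaged 6438 ± 4001 FPKM (SD, n = 10), against a median of 4.02 FPKM over the 83 libraries outside the class.

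ENSBTAG00000006541 was abundant in the same 10 libraries but ranked them almost the other way round. In the hindlimb it had 740.1 FPKM in gluteus medius, 1947 in rectus femoris, 3656 in semimembranosus, 4965 in biceps femoris and 5182 in semitendinosus. In the forelimb it had 2210.0 FPKM in supraspinatus, 3181 in triceps brachii and 3477 in infraspinatus, and it had 3308 FPKM in longissimus dorsi and 462 in the internal tongue muscle. The 2 lowest of the 10, internal tongue muscle and gluteus medius, were among the 3 highest for the other gene, while semitendinosus was the highest for this gene and the lowest for the other. The library labelled diaphragm had 4.13 FPKM. Outside the class, choroid plexus and larynx lay within the range of the 10 muscles. The gene averaged 2913 ± 1585 FPKM over the 10 muscles (SD, n = 10), against a median of 1.96 FPKM over the 83 libraries outside the class.

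**Figure D1:**
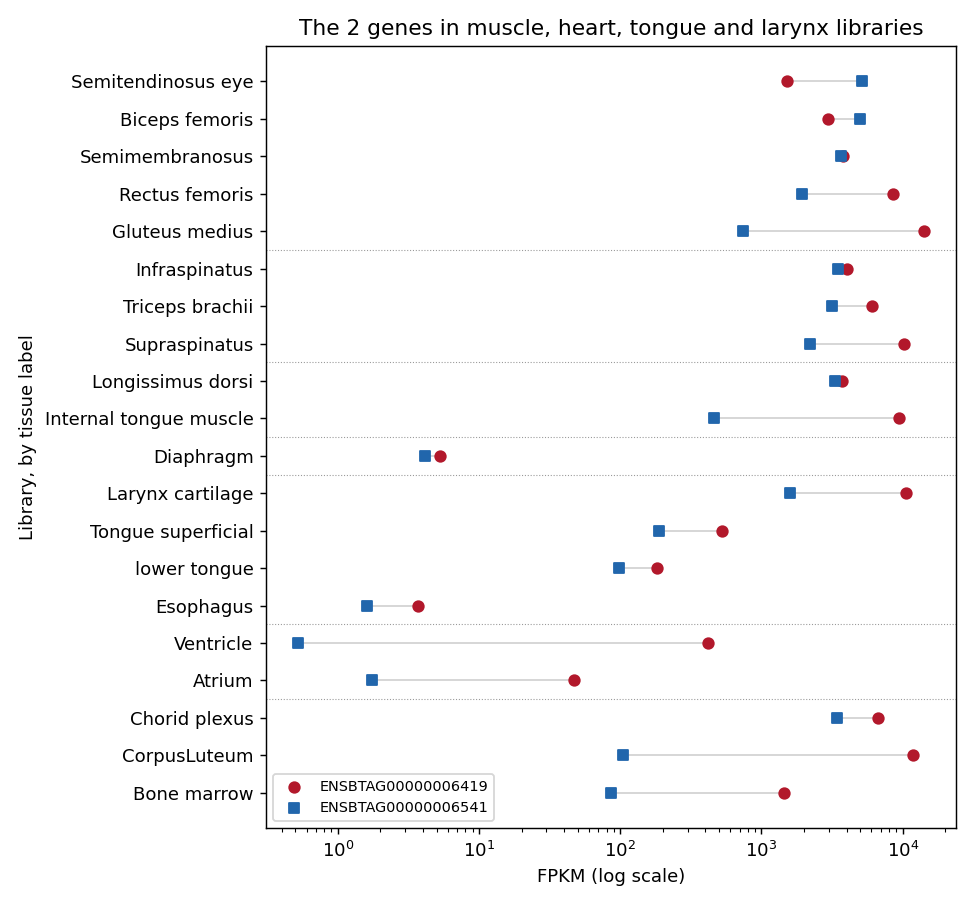
FPKM of ENSBTAG00000006419 (red circles) and ENSBTAG00000006541 (blue squares) on a log axis in single libraries, which run down the page by tissue label; dotted lines part hindlimb, forelimb, back and tongue muscle, diaphragm, muscle-bearing organs, heart and 3 libraries that stood apart. The red circle lies left of the blue square in semitendinosus and biceps femoris and far to the right of it in gluteus medius, internal tongue muscle and ventricle.

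The choice of these genes leaned on the library labelled diaphragm. By the mean of log2(FPKM + 1) in muscle minus that in the rest, their differences were 8.38 and 8.36, places 15 and 16 among the 18031 genes that reached 1 FPKM in 3 or more libraries. With the condition that every muscle library lies above the median of the rest, they took places 1 and 2, and the next genes were ENSBTAG00000020223 at 7.74 and ENSBTAG00000011869 at 7.40. Without the library labelled diaphragm and with the same condition, ENSBTAG00000021218 and ENSBTAG00000046725 came first, at 10.72 and 10.53, and the 2 genes described here stood at 9.26 and 9.17, in places 15 and 17 by the difference alone. They are thus among the leading muscle genes with or without that library, and the 2 at the very top only with it and the condition. These values chose the genes and are given without a test.

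Within the muscles the balance between the genes ran over a wide range. ENSBTAG00000006541 exceeded ENSBTAG00000006419 in 2 of the 10 libraries, by 3.42-fold in semitendinosus and 1.68-fold in biceps femoris. Semimembranosus, longissimus dorsi and infraspinatus held nearly equal levels, with ENSBTAG00000006419 1.04-fold, 1.13-fold and 1.15-fold above ENSBTAG00000006541. In triceps brachii, rectus femoris and supraspinatus it was 1.90-fold, 4.36-fold and 4.6-fold above, and in gluteus medius and internal tongue muscle 19.2-fold and 20.5-fold. Over the 10 muscles Spearman's rho between the genes was -0.90 (Pearson's r of log2(FPKM + 1) -0.81), and without the 2 libraries farthest from the median of ENSBTAG00000006419 it was -0.86. Over the 9 limb and back muscles it was -0.93. Over all 94 libraries rho was 0.61 (Pearson's r 0.89), which takes in the contrast between muscle and the rest that chose the genes. It was 0.46 over the 83 libraries outside skeletal muscle and 0.38 over the 74 other tissues without choroid plexus, corpus luteum and bone marrow. With the library labelled diaphragm among the muscles it was -0.43, and r was 0.79 (n = 11). These are descriptions over tissues, each with 1 library. FPKM of 2 abundant genes in 1 library share its total, and whether that bears on the rho was not tested.

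**Figure D2:**
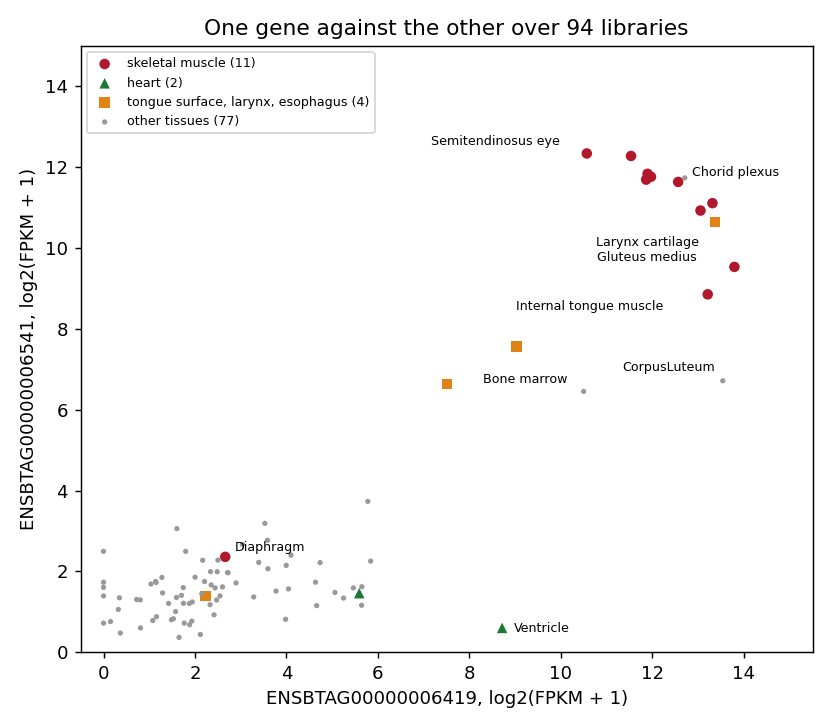
ENSBTAG00000006541 (vertical axis) against ENSBTAG00000006419 (horizontal axis), both as log2(FPKM + 1), in 94 libraries; each point is a library, marked by class. The muscle libraries other than the diaphragm form a descending band at the upper right (rho -0.90), and the ventricle lies at the bottom with a high level of ENSBTAG00000006419 only.

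Over the 10 muscles each gene had a larger SD than the median gene. Together they made up 1.01% of all FPKM in longissimus dorsi and 2.07% in gluteus medius, the lowest and highest of the 10 muscles. On the log2(FPKM + 1) scale ENSBTAG00000006419 had an SD of 0.98 over the 10 muscles and ENSBTAG00000006541 one of 1.15. The median SD of 10752 genes measured in these muscles was 0.42, and that of the 248 abundant ones with a mean log2(FPKM + 1) of at least 8 was 0.53. From the lowest to the highest muscle, ENSBTAG00000006419 spanned 9.37-fold and ENSBTAG00000006541 11.2-fold. In gluteus medius ENSBTAG00000006419 was the 12th most abundant gene and ENSBTAG00000006541 the 90th, while in semitendinosus they were the 51st and the 22nd.

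**Figure D3:**
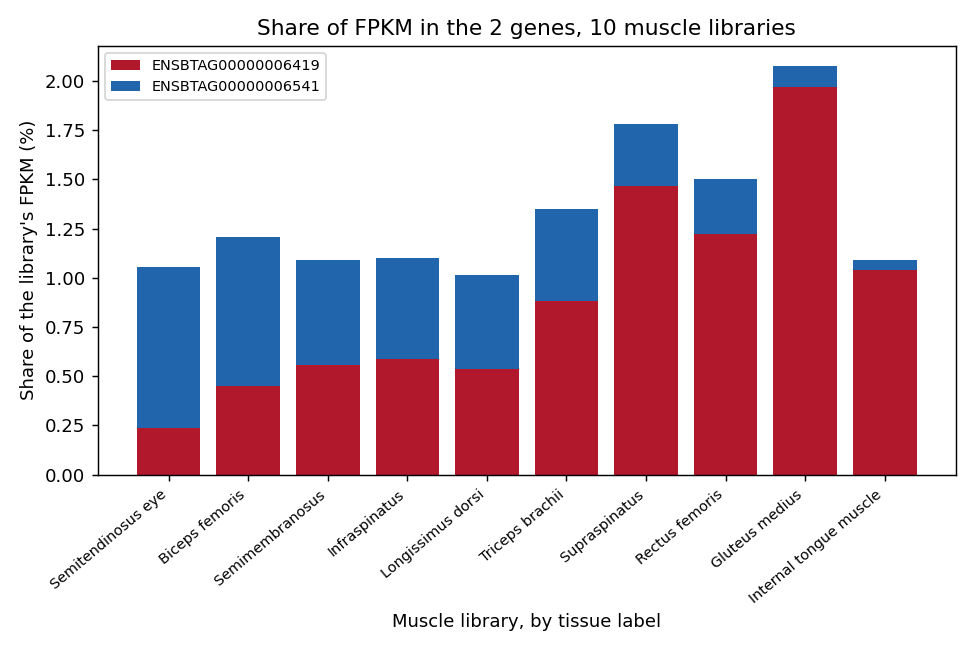
Share of each library's FPKM held by ENSBTAG00000006419 (red) and ENSBTAG00000006541 (blue, stacked on it) in 10 muscle libraries, ordered by the share of ENSBTAG00000006541. The blue part shrinks to the right while the red part mostly grows, with falls at longissimus dorsi, rectus femoris and internal tongue muscle. The summed share runs from 1.01% to 2.07%.

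The ranges of hindlimb and forelimb muscles overlapped for both genes. ENSBTAG00000006419 had a mean log2(FPKM + 1) of 12.17 ± 1.27 in the hindlimb and 12.61 ± 0.67 in the forelimb (SD, n = 5 and 3), a difference of -0.45 (95% interval -1.97 to 1.07; limma adjusted p = 0.999; exact permutation p = 0.589). ENSBTAG00000006541 had 11.38 ± 1.18 in the hindlimb and 11.50 ± 0.35 in the forelimb, a difference of -0.12 (95% interval -1.46 to 1.22; limma adjusted p = 0.999; exact permutation p = 0.911). The balance of the genes, as log2(FPKM + 1) of ENSBTAG00000006419 minus that of ENSBTAG00000006541, averaged 0.78 in the hindlimb and 1.11 in the forelimb (two-sided exact permutation p = 0.821). The hindlimb held both extremes of the limb muscles, semitendinosus and gluteus medius, and the forelimb values lay between them. limma called 0 of 10502 genes between these limbs (0% called; a call needs an adjusted p below 0.05 with a log2 difference of 1 or more either way). Of these genes 208 had an unadjusted limma p under 0.05, a share below the 0.05 that no difference would give on average. The smallest p this exact test can give with 5 against 3 libraries is 0.0179.

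In the heart the genes parted. ENSBTAG00000006419 had 419 FPKM in the ventricle and 47.2 in the atrium, against a median of 3.49 FPKM and a range of 0 to 11891 over the 77 libraries of other tissues. ENSBTAG00000006541 had 0.518 FPKM in the ventricle and 1.75 in the atrium, against a median of 1.96 and a range of 0.290 to 3408 FPKM in other tissues. Both heart libraries thus lay above most other tissues for ENSBTAG00000006419 and below their median for ENSBTAG00000006541. The ventricle held 8.33% of the median of the 10 muscles for ENSBTAG00000006419 but 0.0160% for ENSBTAG00000006541, and the atrium held 0.939% and 0.0541%. In bulk tissue fewer cells of a type and less RNA per cell cannot be told apart.

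The rule set skeletal muscle against all other libraries, so heart, the organs below and the 77 other tissues all entered the choice. The low values of the 77 helped to choose these genes. P-values against those tissues, for heart and for the organs, are therefore not independent of the choice and are not support. Against the 77 other tissues the heart difference of ENSBTAG00000006419 was 4.40 on the log2(FPKM + 1) scale (SE 1.73, n = 2 and 77) and was not called (limma adjusted p = 0.149; exact permutation p = 0.0461). Choroid plexus, corpus luteum and bone marrow were the only 3 of the 77 at 100 FPKM or more of this gene, and the only ones above the ventricle. Without these 3, which removes the highest values it is set against, the difference was 4.78 and was called (limma adjusted p = 0.00214, with a range of 0.00214 to 0.979 over the alternatives; exact permutation p = 0.00175). The atrium lay below 4 of the 74 remaining libraries, bull testis at 56.3, tail of the epididymis at 53.9, frontal cortex at 49.1 and hippocampus at 49.0 FPKM. For ENSBTAG00000006541 the heart difference was -0.53 without choroid plexus, corpus luteum and bone marrow. With all 77 other tissues it was -0.79 (95% interval -2.94 to 1.37; limma adjusted p = 0.8). In this comparison limma called 3.42% of 18031 genes, 2.12% as higher and 1.29% as lower in heart, or 671 as higher and 67 as lower with quantile normalization against 383 and 233 without it. The log2(FPKM + 1) of ENSBTAG00000006419 minus that of ENSBTAG00000006541 was 8.11 in the ventricle and 4.13 in the atrium, against a mean of 0.93 ± 1.62 in other tissues (SD, n = 77). The highest values among other tissues were 6.82 in the library labelled corpus luteum and 4.48 in hippocampus, both above the atrium. Bone marrow (4.04), frontal cortex (4.03) and diencephalon (3.91) lay just below the atrium. The contrast of heart with other tissues in this balance was singled out after the values were seen and is a description.

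The 4 libraries of muscle-bearing organs ran from muscle-like levels to background. ENSBTAG00000006419 had 10561 FPKM in larynx cartilage, 521 in superficial tongue, 181 in lower tongue and 3.69 in esophagus. ENSBTAG00000006541 had 1601 FPKM in larynx cartilage, 188 in superficial tongue, 98.1 in lower tongue and 1.62 in esophagus. Larynx thus lay within the range of the 10 muscles for both genes, the tongue libraries between muscle and other tissues, and the esophagus near the medians of the other tissues, 3.49 and 1.96 FPKM. In whole profile, larynx cartilage was closest to the internal tongue muscle (rho 0.893), the tongue libraries were closest to each other, and the esophagus was closest to the reticulum of the forestomach (0.930) with a median rho of 0.736 to the 10 muscles. No markers could be named, so how much striated muscle each sample held was not tested.

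Set against the 77 other tissues, both genes were called in these organs, with the limit on independence given for the heart. The log2 difference was 5.28 for ENSBTAG00000006419 (SE 1.30, n = 4 and 77; limma adjusted p = 0.00442; exact permutation p = 0.00270). It was 4.74 for ENSBTAG00000006541 (SE 0.85, n = 4 and 77; limma adjusted p = 4.8e-05; exact permutation p = 0.000832). Of 18031 genes, limma called 2.66% as higher and 4.47% as lower in the organs, 7.13% in all, or 675 as higher and 113 as lower with quantile normalization against 479 and 806 without it. Without the larynx the differences were 3.50 and 3.37, and ENSBTAG00000006419 was no longer called (limma adjusted p = 0.157, with a range of 1.66e-06 to 0.157 over the alternatives), while ENSBTAG00000006541 was (limma adjusted p = 0.0171, with a range of 2.06e-12 to 0.0171).

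The balance of the genes also differed among the organ, tongue muscle and heart libraries outside the limbs. ENSBTAG00000006419 exceeded ENSBTAG00000006541 6.6-fold in larynx cartilage, 2.77-fold in superficial tongue and 1.84-fold in lower tongue, against 20.5-fold in the internal tongue muscle. These folds fall inside the span of the 10 muscles, and single libraries do not allow a test between them. In the ventricle the fold was 809. Among the libraries that stood apart, choroid plexus had 6687 and 3408 FPKM of ENSBTAG00000006419 and ENSBTAG00000006541, a 1.96-fold excess close to that of triceps brachii, the library it was closest to in whole profile. Corpus luteum had 11891 and 104 FPKM, a 114-fold excess, and bone marrow 1444 and 86.7 FPKM, a 16.7-fold excess. The corpus luteum excess was larger than in any of the 10 muscles, although longissimus dorsi, its closest library, had a 1.13-fold excess.

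Away from muscle both genes were mostly found at low levels. Of the 74 other-tissue libraries that remain without choroid plexus, corpus luteum and bone marrow, 62 had 1 FPKM or more of ENSBTAG00000006419 and 59 of ENSBTAG00000006541. ENSBTAG00000006419 was at 10 FPKM or more in 18 of the 74, with a median of 3.39 and a highest value of 56.3 FPKM in bull testis. It was listed at 0 in 5 libraries, ascending colon, kidney cortex, mammary gland fat, pigment epithelium of the eye and bulbourethral gland, and an exact 0 can be a failed estimate. ENSBTAG00000006541 was listed at 0 in no library and reached 10 FPKM in 1 of the 74, the tail of the epididymis at 12.3 FPKM, with a median of 1.82 FPKM. All 8 brain regions held ENSBTAG00000006419 between 14.8 and 49.1 FPKM, with a median of 28.3, and 60 of the 66 remaining libraries lay below the lowest brain region. For ENSBTAG00000006541 the brain regions ran from 0.759 to 3.43 FPKM, and 11 of the 66 lay below the lowest. The brain was singled out after its values were seen, so no test is given.

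Ordered by group median, ENSBTAG00000006419 was highest in corpus luteum, larynx, internal tongue muscle, choroid plexus, forelimb, hindlimb and back muscle. The range of the 5 hindlimb muscles, 1515 to 14189.5 FPKM, covered the values of all the others in this list, so their order is not beyond the spread among muscles. The tongue libraries followed at 181 and 521 FPKM, then the heart at 47.2 and 419, with overlapping ranges. ENSBTAG00000006541 was highest in hindlimb muscle, choroid plexus, back muscle, forelimb muscle, larynx and internal tongue muscle, and then fell to the tongue libraries at 98.1 and 188 FPKM and corpus luteum at 104. Below these, no group median of ENSBTAG00000006541 was above 5.36 FPKM.

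**Figure D4:**
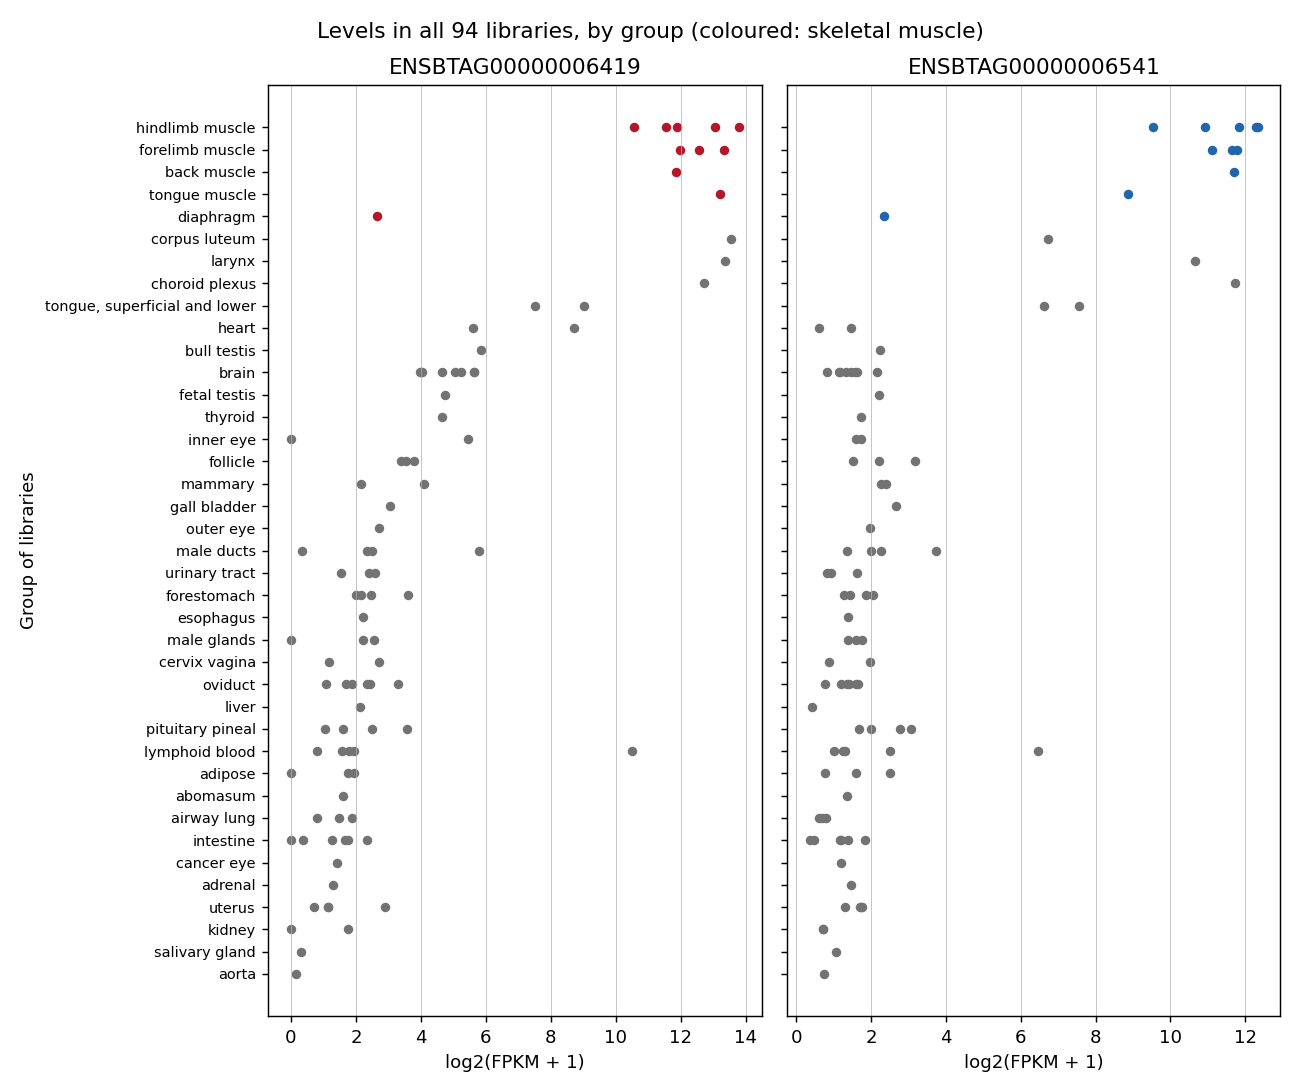
Levels of ENSBTAG00000006419 (left) and ENSBTAG00000006541 (right) as log2(FPKM + 1) in 94 libraries, in rows by group, skeletal muscle coloured and other groups grey and ordered by the median of ENSBTAG00000006419; each point is a library. The diaphragm lies at the level of the grey groups, and the heart and brain rows lie further right in the left panel than in the right one.

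The genes with the most similar profile over all 94 libraries were different for each. For ENSBTAG00000006419 they were ENSBTAG00000009387 (Spearman's rho 0.84) and ENSBTAG00000002157 (0.80), with medians of 398 and 326 FPKM in the 10 muscles. For ENSBTAG00000006541 they were ENSBTAG00000021218 (0.75) and ENSBTAG00000046725 (0.73), the leading pair of muscle genes without the library labelled diaphragm, with medians of 13024 and 9847 FPKM. ENSBTAG00000006541 itself was only in place 76 of the 18030 genes ranked by likeness to ENSBTAG00000006419, and ENSBTAG00000006419 in place 19 the other way round.

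The order of other leading muscle genes over the 10 muscles was set beside that of both genes. Of the 50 genes next to them by the muscle difference without the diaphragm, 23 had a positive rho to ENSBTAG00000006419 and a negative one to ENSBTAG00000006541 over the 10 muscles (46%), and 26 the reverse (52%). Over 10750 genes measured in muscle these shares were 51.9% and 35.7%, and 98% of the 50 and 87.6% of the 10750 genes had opposite signs. A rho of at least 0.6 was reached by 16 of the 50 (32%) with ENSBTAG00000006419 and by 21 (42%) with ENSBTAG00000006541, against 12.4% and 8.42% of the 10750 genes. A gene close to one of them is nearly bound to run against the other, since their own rho is -0.90. Ventricle and atrium values did not enter these correlations but were among the libraries that muscle was set against to choose the 50 genes. In the ventricle the 23 genes had a median of 83.6% of their level in the 10 muscles, and 20 of them reached 5%. The 26 genes had a median of 0.0814% in the ventricle, and 8 of them reached 5%. The ventricle ranges overlapped widely, at 0% to 734% for the 23 genes and 0.00879% to 804% for the 26. In the atrium the medians were 59.3% and 0.199%. Such heart levels were not worked out over all 10750 genes, so whether they are unusual was not tested. The lists were drawn from the same libraries, so these are descriptions without a test.

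**Figure D5:**
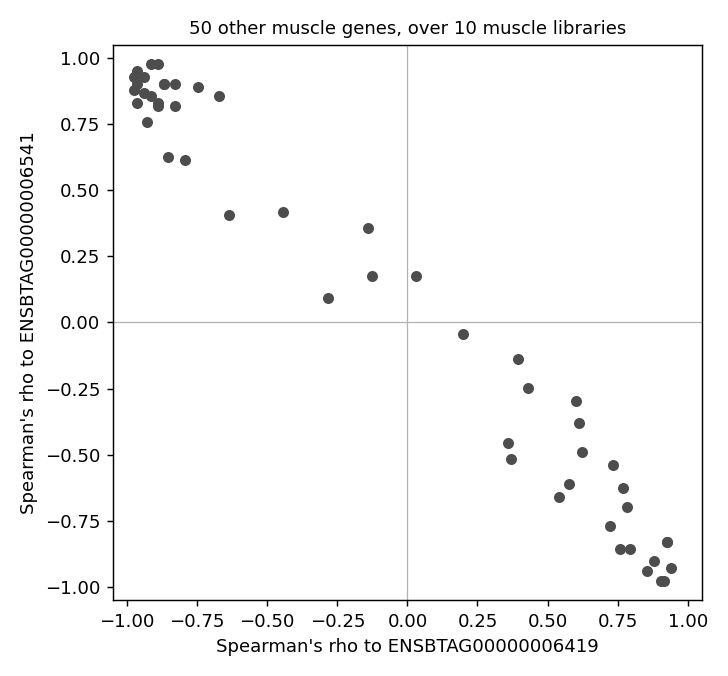
Spearman's rho of 50 other muscle genes to ENSBTAG00000006419 (horizontal axis) and to ENSBTAG00000006541 (vertical axis) over 10 muscle libraries; each point is a gene. The 23 genes at the lower right follow ENSBTAG00000006419 and the 26 at the upper left follow ENSBTAG00000006541, with 1 gene slightly positive to both.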

How the data were processed

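RNA sequencing values were taken as deposited. The deposited values are FPKM, 1 per gene and library. Per the submitters' processing notes, HISAT2, StringTie and the build UMD3.1 were used by the authors. Versions, annotation, filters and strand use: not given in the sources used here. Ratios of low values between libraries did not pile up on common steps, so read counts were not recovered and depth is unknown. How reads of near-identical genes were shared is not known.

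Tests used log2(FPKM + 1), a scale that understates the fold of a low gene. Genes that reached 1 FPKM in 3 or more libraries entered limma 3.58.1 (R 4.3.3; two-sided, moderated with a mean trend, Benjamini-Hochberg over all genes entered), over 94 libraries for heart and organs and over the 8 limb muscles for the limbs. The fit was checked on simulated data. Beside it, two-sided exact permutation tests over libraries were run, 8 with all libraries, 5 without choroid plexus, corpus luteum and bone marrow, and more under the alternatives, with p unadjusted. Python 3.11.15 with numpy 2.4.6, scipy 1.17.1, pandas 2.3.3 and matplotlib 3.10.9 was used. The genes, groups and lists were chosen with earlier results of these data known. Beside the 2 genes, the text names the 2 most similar genes for each and the 2 next in the ranking that chose them; the leading pair without the diaphragm was named after its values were seen. Lists of contractile and cell type marker genes were not used, because 0 identifiers could be matched to a symbol.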

Additional observations from a re-analysis of the deposited data

Results flagged for a closer look

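Over 22 sets of 4 to 10 libraries, 1 library lay far from the others of its set in 3 cases. The cut-off gives about 1 in 20 by chance among replicates of 1 tissue. These sets mix tissues or regions, so that rate need not hold here. In the lymphoid and blood group, bone marrow was far above the other 4 libraries for both genes. It had 1444 FPKM of ENSBTAG00000006419, against 0.746 to 2.84 FPKM in lymph nodes, mesenteric lymph node, spleen and white blood cells. It had 86.7 FPKM of ENSBTAG00000006541, against 1.01 to 4.64 FPKM in the same 4. In the uterus group, the contralateral intercaruncular endometrium had 1.47 FPKM of ENSBTAG00000006541, against 2.28 to 2.36 FPKM in the other 3 libraries, all near the low end of the scale.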

How the results depend on the processing

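No paired analysis was possible because the labels give no replicate numbers that groups share. Limb against limb, limma called 0 genes in every fit but the one with the spread of all libraries, which called 1. The direction of ENSBTAG00000006541 there was not stable, at 0.091 with quantile normalization and -0.36 to 0.34 with 1 limb muscle left out, and neither was the difference of the genes on the log2(FPKM + 1) scale, at -1.20 to 0.31; ENSBTAG00000006419 stayed below 0, at -0.85 to -0.05. The 616 genes called in heart became 1479 without choroid plexus, corpus luteum and bone marrow, and 123 to 173 with 1 heart library. For ENSBTAG00000006419 the heart difference was 4.78 and called without those 3 libraries, the highest of the other tissues for this gene, and 2.84 to 5.96 and not called with 1 heart library. That difference of the genes was 3.19 to 7.18 higher in heart than in other tissues with 1 heart library. The 1285 genes called in the muscle-bearing organs became 788 with quantile normalization and 496 to 1004 with 1 organ left out. Both genes kept their direction and call there, at 3.50 to 7.21 and 3.37 to 6.46, except ENSBTAG00000006419 without the larynx, at 3.50. The other tissues entered the choice of the genes, so their calls in heart and organs are not support, however steady. Quantile normalization moved the median difference of all genes in heart to -0.14, against -0.42, and in the organs to -0.12, against -0.44. The rank correlation of the 2 genes (Spearman) was 0.61 over all libraries, but -0.43 over 11 and -0.90 over 10 muscles. The causes of these shifts were not tested.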
